A study of Mus musculus with 12 samples.

Results

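The response of control cardiomyocytes to pressure overload was taken from 6 of the 12 libraries of the series, namely the 3 control TAC libraries set against the 3 control sham libraries. The libraries were chosen by their labels alone, and the response was described across all genes. In TAC the transverse aorta is narrowed by a ligature, so that the heart pumps against raised pressure, while in sham surgery it is not tied. Control TAC and control sham mice were male, carried alphaMHC-MerCreMre/+ and were given tamoxifen at 30 ug/g on 3 days from the age of 8 weeks, so the inducible Cre recombinase, which the cardiomyocyte-specific alphaMHC promoter drives, was present and activated in both groups. Hearts were taken 7 days after surgery, at 11 weeks. The labels' protocols place surgery at 10 weeks and the series' design text at 8 weeks. The other 6 libraries came from mice labelled dKO (MHC-MerCreMre/+; Mrtf-a-/-; Mrtf-bflox/flox), with the same tamoxifen and the same surgeries, and lent the statistical fit their spread. Cardiomyocytes were enriched by sedimentation, with no sort. The labels do not say whether replicates came from separate animals, so p-values measure the spread between these libraries, which may be technical.

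Cardiomyocytes under pressure overload are known to enlarge, to switch on genes of the fetal heart such as natriuretic peptides and alternative sarcomere proteins, and to turn down fatty acid oxidation. Fibroblasts of the same hearts are known to become activated and to lay down collagen and matricellular proteins, while macrophages accumulate. MRTF-A and MRTF-B, encoded by Mkl1 and Mkl2, are coactivators of serum response factor (Srf), which binds CArG boxes near genes of the actin cytoskeleton and of muscle.

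Most genes called after overload were higher. Changes over all genes were even in direction, which the scaling of the libraries by itself favours. Of 14712 genes tested, 280 (1.90%) were higher after TAC and 51 (0.347%) were lower, at a Benjamini-Hochberg adjusted p under 0.05 in edgeR's quasi-likelihood test, which is what "called" stands for throughout. At least 2-fold separated 273 of the genes called higher. The median log2 change over all tested genes was 0.00, and 2480 of the 14712 genes had an unadjusted p under 0.05. Numbers called, or with such a p, in single gene lists are to be read against these shares over all genes. Every TAC library lay above every sham library in 1614 genes (11.0%) and below every sham library in 1588 genes (10.8%). Levels are CPM, read counts scaled to a common library size by the trimmed mean of M values (TMM), given for replicates 1, 2 and 3 in that order. Changes are log2 values of TAC minus sham with their standard error.

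The counts of called genes rested on single libraries. Leaving out TAC replicate 1 raised them to 875 higher (5.83%) and 255 lower (1.70%), and 327 of the 331 genes called with all libraries were among these. They were 343 and 83 without sham replicate 2, 95 and 14 without TAC replicate 3, 13 and 1 without TAC replicate 2, 2 and 0 without sham replicate 1, and 2 and 1 without sham replicate 3. Mybpc2 and Nppa were called in all of these fits, and also with each dKO library left out. Of the 68 called genes that the naming rule picked, 66 lost their call without sham replicate 1, 65 without sham replicate 3, 61 without TAC replicate 2, 36 without TAC replicate 3, 18 without sham replicate 2 and 2 without TAC replicate 1. The direction of the 68 genes did not turn in any of those fits. By other tools the counts were 755 higher and 250 lower in DESeq2 and 141 and 34 in limma-voom, and on the 6 control libraries alone edgeR called 2 genes, Mybpc2 and Mki67, and DESeq2 called 731 higher and 382 lower.

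**Figure D1:**
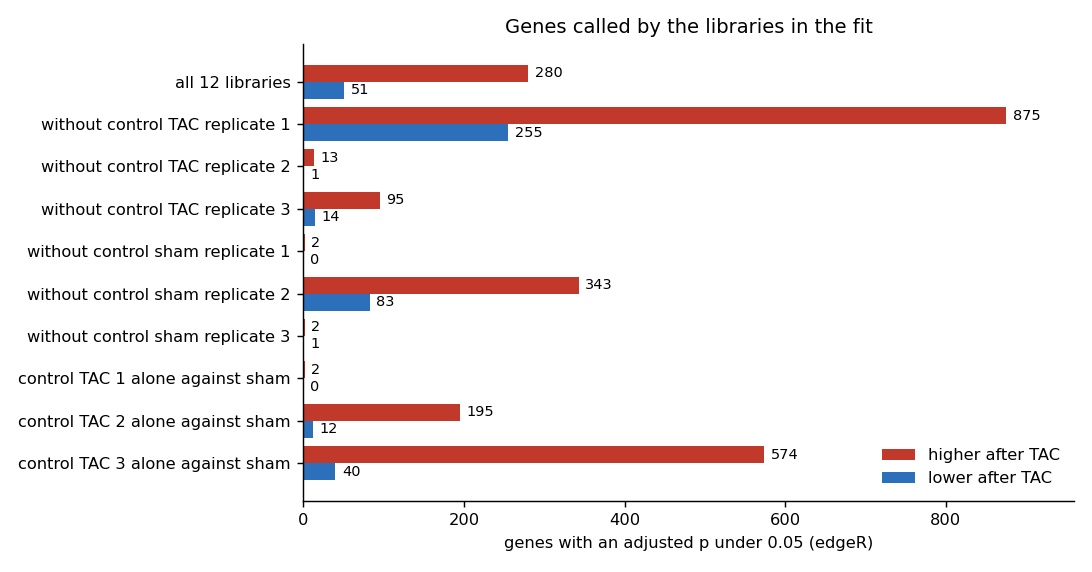
Number of genes called by edgeR as higher (red) or lower (blue) after TAC in control cardiomyocytes, by the libraries in the fit; a bar starts at 0. The bars reach 280 and 51 with all 12 libraries, 875 and 255 without TAC replicate 1, and 2 and 0 for TAC replicate 1 alone against sham.

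Sequencing depth was even, with 25633373 to 28007352 counts in the TAC libraries and 23630354 to 29675212 in the sham libraries, so that 3 counts corresponded to 0.0979 to 0.137 CPM. Mitochondrially encoded genes took 23.16% to 27.35% of counts in TAC libraries and 29.44% to 32.57% in sham libraries. The libraries carried the labelled cell type: 26 adult sarcomere genes summed to 107800, 85360 and 73880 CPM in the TAC libraries, against 99600, 76180 and 100200 CPM in the sham libraries. Transcripts known from other cells were present too, since no resident fibroblast or macrophage marker was at 0 in any of the 6 libraries. Sham replicate 2 lay above the other sham libraries in collagen, macrophage and cell cycle genes, and TAC replicate 1 lay below the other TAC libraries in the same lists.

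The genes called in the fetal and hypertrophic program were raised in every TAC library, replicate 1 included. The call itself used these libraries, and TAC replicate 1 lay above every sham library in 274 (97.9%) of all 280 genes called higher. Of its 21 genes, 10 were called higher and none lower, with a median log2 change of 1.58 over the list. The number was 11 without TAC replicate 1, 10 without TAC replicate 3, 8 without sham replicate 2, and 2 without TAC replicate 2, sham replicate 1 or sham replicate 3. Nppa (chr4:148000722-148002079 on GRCm38), which encodes atrial natriuretic peptide, had 810.4, 1599 and 1764 CPM in the TAC libraries, against 112, 96.6 and 60.8 CPM in the sham libraries. The groups lay far apart, and the change of 3.95 ± 0.42 had an edgeR adjusted p of 0.00452 that rose to at most 0.0392 when any 1 of the 12 libraries was left out. Nppb, which encodes B-type natriuretic peptide, had 597, 880.4 and 588 CPM in the TAC libraries, against 272, 264 and 313 CPM in the sham libraries. All TAC libraries lay above all sham libraries, at a change of 1.28 ± 0.21 and an edgeR adjusted p of 0.0157.

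Sarcomere genes of the program behaved alike in direction and differed in which TAC library was highest. Acta1, skeletal alpha-actin, had 3155, 3539 and 1658 CPM in the TAC libraries, against 168, 364 and 158 CPM in the sham libraries, and TAC replicates 1 and 2 were about equal while TAC replicate 3 was the lowest of the group. Its change was 3.60 ± 0.55, with an edgeR adjusted p of 0.0125. Myh7, the slow beta-myosin heavy chain, had 393, 379 and 1599 CPM in the TAC libraries, against 95.5, 96.2 and 135 CPM in the sham libraries, where TAC replicate 3 stood above the other TAC libraries and no groups overlapped (2.86 ± 0.53, edgeR adjusted p 0.0204). Mybpc2 (chr7:44501699-44524656), the fast skeletal isoform of myosin-binding protein C, had 84, 88.1 and 65.9 CPM in the TAC libraries, against 18.6, 20.4 and 19.6 CPM in the sham libraries. Its sham libraries were close to equal and far below TAC, at a change of 2.02 ± 0.18 and an edgeR adjusted p of 0.000969, at most 0.0325 with any library left out. Transcripts of actin and myosin genes are alike in sequence, and the sources used here do not give how reads that match several of them were counted.

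Stress and mechanosensing members rose as well. Ankrd1, a titin-binding ankyrin repeat protein, had 1966, 3390.2 and 2568 CPM in the TAC libraries, against 695, 537 and 1128 CPM in the sham libraries (1.75 ± 0.30, edgeR adjusted p 0.0166). Rcan1, a regulator of calcineurin, had 174, 348 and 140.1 CPM in the TAC libraries, against 59.8, 67.8 and 64.7 CPM in the sham libraries (1.78 ± 0.31, edgeR adjusted p 0.0175). Tnfrsf12a, the receptor of the cytokine TWEAK, had 117, 156 and 77.6 CPM in the TAC libraries, against 41.6, 38.1 and 37.1 CPM in the sham libraries (1.58 ± 0.24, edgeR adjusted p 0.0125). Xirp2, an actin-binding protein of the intercalated disc, had 1209, 1869 and 986 CPM in the TAC libraries, against 495, 360.3 and 502 CPM in the sham libraries and was called higher by 1.58 ± 0.33 (edgeR adjusted p 0.0294), and it was the sole gene called among 20 intercalated disc genes. In each of these genes all TAC libraries lay above all sham libraries, and TAC replicate 3, not replicate 1, was the lowest TAC library of Rcan1, Tnfrsf12a and Xirp2.

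The alpha-myosin heavy chain Myh6 was not called, with 26891, 19331 and 13436 CPM in the TAC libraries, against 27912, 21079 and 27432 CPM in the sham libraries. The groups overlapped, TAC replicate 3 was the lowest library, and the change of -0.36 ± 0.31 had an edgeR adjusted p of 0.652. Among the 26 adult sarcomere and Z-disc genes 2 were called higher and none lower, with a median log2 change of 0.00. Both were Z-disc proteins: Synpo2l, with 321, 547 and 235 CPM in the TAC libraries, against 125, 101 and 157 CPM in the sham libraries (1.53 ± 0.29, edgeR adjusted p 0.0204), and filamin C (Flnc), with 732, 899 and 536 CPM in the TAC libraries, against 342, 341 and 373 CPM in the sham libraries (1.04 ± 0.22, edgeR adjusted p 0.036).

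**Figure D2:**
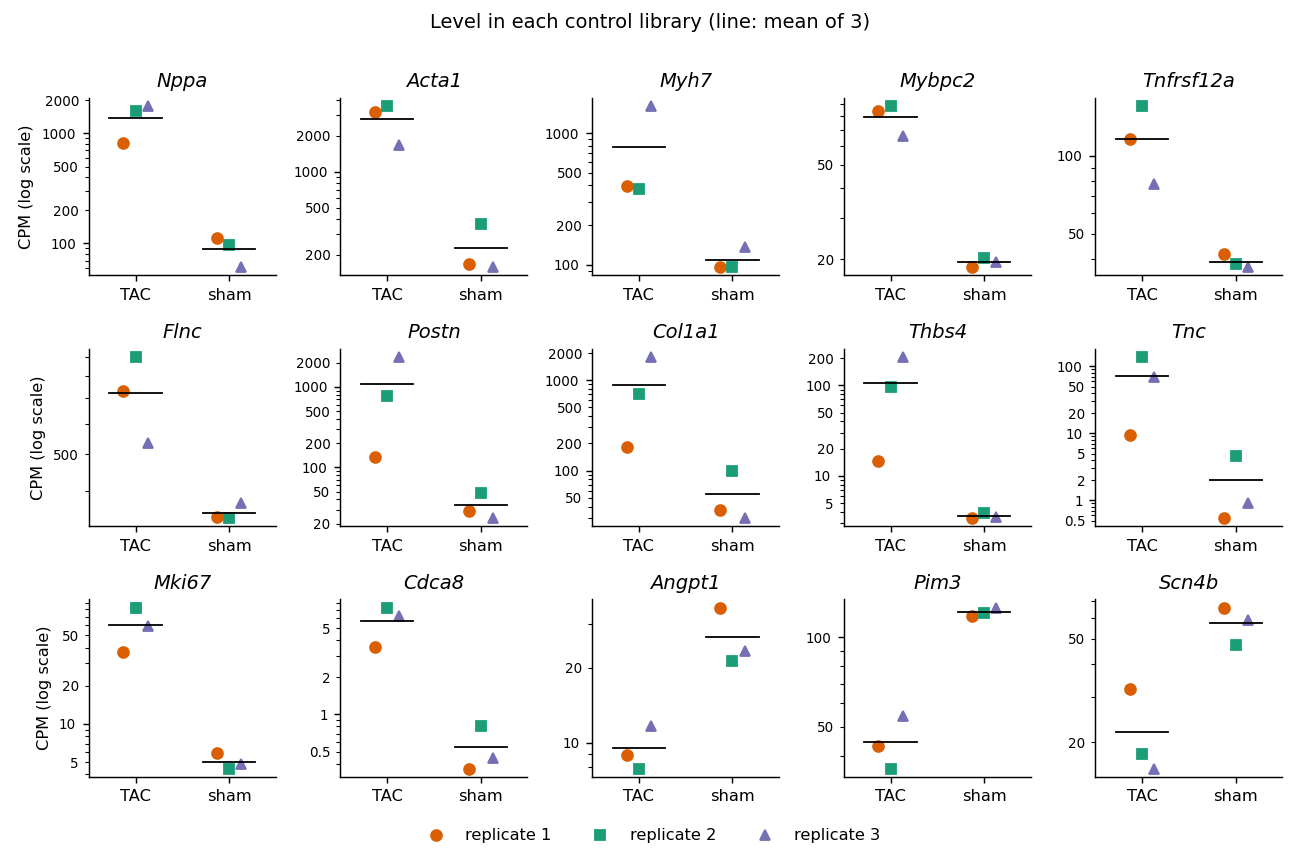
Level of 15 genes in each control library, in CPM on a log scale that differs between panels; colours and symbols mark replicates 1, 2 and 3, TAC is left of sham, and a line is the mean of 3. TAC replicate 1 lies beside the other TAC libraries for Acta1, Mybpc2 and Flnc and far below them for Postn, Thbs4 and Tnc, while no panel shows an overlap of TAC and sham.

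Of 31 cytoskeletal targets of MRTF and Srf, 6 were called higher and none lower, with a median log2 change of 0.86, and 11 were called without TAC replicate 1, 5 without sham replicate 2, 4 without TAC replicate 3 and 0 without TAC replicate 2, sham replicate 1 or sham replicate 3. On the list's median log2 scale TAC replicate 1 stood at 0.32 relative to the sham mean. Sham replicate 2 stood at 0.33 relative to the other sham libraries, a different baseline. The 6 were Acta1, Ankrd1, Fhl1, Itga5, Cnn1 and Zyx, the first 3 of which also belong to the hypertrophic list. Itga5, the fibronectin receptor subunit, had 99.9, 158 and 121 CPM in the TAC libraries, against 69.7, 61.3 and 58 CPM in the sham libraries (edgeR adjusted p 0.019). Cnn1, a calponin of smooth muscle, had 1.16, 17.5 and 14.2 CPM in the TAC libraries, against 0.32, 0.428 and 0.409 CPM in the sham libraries, with TAC replicate 1 far nearer to sham than the others (4.81 ± 0.98, edgeR adjusted p 0.0289). Zyx, a focal adhesion protein, had 68.6, 129 and 125 CPM in the TAC libraries, against 45.5, 61.1 and 52.2 CPM in the sham libraries (1.02 ± 0.23, edgeR adjusted p 0.04). The coactivator genes themselves were not called: Mkl1 had 9.32, 16 and 15.6 CPM in the TAC libraries, against 7.59, 11.4 and 8.89 CPM in the sham libraries and Mkl2 had 36, 30.1 and 37 CPM in the TAC libraries, against 44.1, 32.6 and 44.1 CPM in the sham libraries, with edgeR adjusted p of 0.29 and 0.706. Srf had 105, 98.6 and 80.8 CPM in the TAC libraries, against 87.5, 89.6 and 114 CPM in the sham libraries, the groups overlapped, and the change of -0.03 ± 0.18 had an edgeR adjusted p of 0.962.

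Because Srf binds CArG boxes, the promoters of called genes were searched for this motif by name on both strands, in windows of 300 bases (250 before to 50 after the RefSeq start, GRCm38.p6). A window existed for 207 of the 280 genes called higher, and 5 of these (2.42%) held a CArG box, against 1.33% of the 10716 windows of tested genes and 1.57% of all 27025 windows in the RefSeq table. The M-CAT motif CATTCC, read on both strands and known as the binding site of TEAD factors, was in 28 of the 207 windows (13.53%), against 12.03% of the windows of tested genes and 14.63% of all windows. It was in 5 of the 10 windows of called hypertrophic genes and the CArG box in 2 of them, Acta1 and Fhl1. A match describes letters in a window and is not evidence of binding. The windows of Acta1 (chr8:123894726-123895025, minus strand), Fhl1 (chrX:56779433-56779732, plus strand), the glycogen-binding protein gene Stbd1 (chr5:92602801-92603100, plus strand) and the mitotic spindle gene Ckap2l (chr2:129297163-129297462, minus strand) are shown 5′ to 3′ because they hold the motif in genes called higher, with the CArG box in capitals. The fifth was that of 4833412C05Rik.
Acta1: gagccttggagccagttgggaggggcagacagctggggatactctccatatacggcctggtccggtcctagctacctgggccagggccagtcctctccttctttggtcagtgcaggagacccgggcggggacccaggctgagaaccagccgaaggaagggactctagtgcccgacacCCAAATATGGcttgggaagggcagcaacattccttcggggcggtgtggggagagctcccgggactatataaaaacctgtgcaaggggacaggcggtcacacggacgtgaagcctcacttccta
Fhl1: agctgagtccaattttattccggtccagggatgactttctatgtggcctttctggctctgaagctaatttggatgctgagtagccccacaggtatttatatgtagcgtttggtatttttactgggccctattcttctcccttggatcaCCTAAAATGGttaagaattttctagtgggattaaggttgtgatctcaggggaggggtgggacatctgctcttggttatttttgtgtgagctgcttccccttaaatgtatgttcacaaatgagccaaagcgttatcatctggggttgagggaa
Stbd1: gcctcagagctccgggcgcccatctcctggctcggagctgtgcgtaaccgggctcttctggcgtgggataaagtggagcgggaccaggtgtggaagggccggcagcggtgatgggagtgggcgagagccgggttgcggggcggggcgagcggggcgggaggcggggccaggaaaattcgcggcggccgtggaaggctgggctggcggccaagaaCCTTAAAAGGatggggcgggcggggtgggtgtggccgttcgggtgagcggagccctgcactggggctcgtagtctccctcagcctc
Ckap2l: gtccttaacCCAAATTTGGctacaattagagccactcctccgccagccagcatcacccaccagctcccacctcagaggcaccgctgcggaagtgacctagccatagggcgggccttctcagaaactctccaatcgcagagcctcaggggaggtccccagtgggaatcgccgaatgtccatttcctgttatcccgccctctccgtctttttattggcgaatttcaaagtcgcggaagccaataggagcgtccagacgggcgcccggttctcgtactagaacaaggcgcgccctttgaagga

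The boxes occupy bases 178 to 187 of the Acta1 window, 149 to 158 of Fhl1, 215 to 224 of Stbd1 and 10 to 19 of Ckap2l, counted from the 5′ end. Fhl1, a LIM-domain protein of the sarcomere, had 258, 429 and 172 CPM in the TAC libraries, against 117, 91.5 and 96.8 CPM in the sham libraries, without overlap (1.49 ± 0.30, edgeR adjusted p 0.0258). Stbd1 had 14.7, 23.8 and 21 CPM in the TAC libraries, against 8.64, 7.53 and 8.22 CPM in the sham libraries (1.29 ± 0.21, edgeR adjusted p 0.0146). Ckap2l had 3.89, 11.1 and 9.17 CPM in the TAC libraries, against 0.411, 1.16 and 0.893 CPM in the sham libraries (3.28 ± 0.50, edgeR adjusted p 0.0125).

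Extracellular matrix genes were 7 of the 8 called genes that rose most among those averaging 5 CPM or more with no overlap of groups (the other was Sprr1a), and the TAC libraries differed widely among themselves here. Of 18 collagen genes 12 were called higher, none was called lower and all 18 had a positive change, with a median log2 change of 3.15. Without TAC replicate 1 the number was 17, without sham replicate 2 it was 16, and it was 0 without TAC replicate 2, TAC replicate 3, sham replicate 1 or sham replicate 3. Collagen genes summed to 2905, 7282 and 12810 CPM in the TAC libraries, against 1134, 2341 and 908.7 CPM in the sham libraries. The lowest TAC sum, in replicate 1, thus lay near the highest sham sum, in replicate 2.

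The fibrillar chains Col1a1 and Col1a2 form type I collagen. Col1a1 had 181, 695 and 1812 CPM in the TAC libraries, against 37, 98.5 and 29.9 CPM in the sham libraries (4.02 ± 0.74, edgeR adjusted p 0.0202). Col1a2 had 205, 722 and 2106 CPM in the TAC libraries, against 61.6, 129 and 58.1 CPM in the sham libraries (3.61 ± 0.69, edgeR adjusted p 0.0229). TAC replicate 3 was the highest and TAC replicate 1 the lowest TAC library in both, and the groups did not overlap. Col8a1, a short-chain collagen, had 35.8, 140.1 and 334 CPM in the TAC libraries, against 12.8, 18.2 and 13.1 CPM in the sham libraries (3.53 ± 0.64, edgeR adjusted p 0.019). Its partner chain Col8a2 had 0.524, 7.15 and 40.4 CPM in the TAC libraries, against 0.0457, 0.3 and 0.149 CPM in the sham libraries. The sham level of Col8a2 came from 1 to 7 reads per library, too few for a fold, and the edgeR adjusted p was 0.0286.

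Of 36 matricellular, elastic fibre and proteoglycan genes 13 were called higher and none lower, with a median log2 change of 2.06. The count was 26 without TAC replicate 1, 14 without sham replicate 2, 6 without TAC replicate 3, 1 without TAC replicate 2 and 0 without either of the other sham libraries. On the list's median log2 scale the TAC libraries stood at 0.44, 1.65 and 2.78 relative to the sham mean. Sham libraries, each set against the other sham libraries, stood at -0.28, 0.73 and -0.55. In summed CPM TAC replicate 1, at 2875, lay just below sham replicate 2, at 2891. Sham replicate 2 was above the sham mean in 35 of the 36 genes. Periostin (Postn, chr3:54361109-54391037), which marks activated fibroblasts, had 136, 763 and 2364 CPM in the TAC libraries, against 29.2, 48.6 and 23.6 CPM in the sham libraries. The 3 TAC libraries differed more among themselves than the 3 sham libraries did, yet all lay above sham (5.01 ± 0.85, edgeR adjusted p 0.0166). Thrombospondin 4 (Thbs4), a matricellular protein, had 14.8, 95.1 and 207 CPM in the TAC libraries, against 3.43, 3.85 and 3.5 CPM in the sham libraries (4.88 ± 0.70, edgeR adjusted p 0.0108). Its sham levels were close to equal, and together with Mybpc2 it was called in TAC replicate 1 alone against sham.

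Tenascin C (Tnc), a matrix glycoprotein of wounds, had 9.44, 138 and 70.1 CPM in the TAC libraries, against 0.548, 4.62 and 0.93 CPM in the sham libraries (5.16 ± 1.08, edgeR adjusted p 0.0331). Cilp, a cartilage intermediate layer protein, had 26.1, 121 and 527 CPM in the TAC libraries, against 3.52, 8.9 and 3.2 CPM in the sham libraries (5.43 ± 0.97, edgeR adjusted p 0.0185). Ltbp2, which binds elastic fibres, had 7, 79.4 and 277 CPM in the TAC libraries, against 1.42, 3.25 and 1.45 CPM in the sham libraries (5.89 ± 1.03, edgeR adjusted p 0.0185). In all 3 genes sham replicate 2 was the highest sham library, and TAC replicate 1 lay above it by less than TAC replicates 2 and 3 did. Cthrc1, a secreted protein of collagen-producing cells, had 1.05, 16.2 and 61.8 CPM in the TAC libraries, against 0.137, 0.342 and 0.0372 CPM in the sham libraries, and osteopontin (Spp1) had 0.711, 8.08 and 11.6 CPM in the TAC libraries, against 0.0914, 0.128 and 0.0372 CPM in the sham libraries. Their sham levels rested on 1 to 8 and 1 to 3 reads, so no fold is given, with edgeR adjusted p of 0.0185 and 0.0146.

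Enzymes that process and crosslink collagen followed, with 12 of 25 called higher, none lower and a median log2 change of 1.12. The number was 15 without TAC replicate 1, 10 without sham replicate 2, 0 without any other control library, and 4 to 12 without any 1 of the dKO libraries. The list's median log2 level relative to the sham mean was 0.38, 1.06 and 1.51 in the TAC libraries. Sham libraries, each set against the other sham libraries, stood at -0.27, 0.69 and -0.31. In summed CPM TAC replicate 1, at 1466, again lay below sham replicate 2, at 1557. Lysyl oxidase (Lox) had 5.88, 51.3 and 129.6 CPM in the TAC libraries, against 1.87, 3.9 and 1.04 CPM in the sham libraries (4.78 ± 0.93, edgeR adjusted p 0.024). Its relative Loxl2 had 23.1, 67 and 71 CPM in the TAC libraries, against 7.81, 13.9 and 5.84 CPM in the sham libraries (2.55 ± 0.48, edgeR adjusted p 0.0204), and the metalloproteinase Adam12 had 3.07, 8.79 and 8.75 CPM in the TAC libraries, against 0.0457, 1.24 and 0.223 CPM in the sham libraries (3.76 ± 0.73, edgeR adjusted p 0.024). Against 1.90% of all tested genes called higher, 2 of 20 genes of TGF-beta signalling were called higher and none lower. These were Fstl3, an activin-binding follistatin relative with 7.3, 12.4 and 9.76 CPM in the TAC libraries, against 2.92, 2.95 and 2.98 CPM in the sham libraries (1.73 ± 0.22, edgeR adjusted p 0.00886), and Fstl1, with 104, 309.7 and 732 CPM in the TAC libraries, against 45.6, 68.1 and 33.3 CPM in the sham libraries (2.96 ± 0.59, edgeR adjusted p 0.0253). The sham libraries of Fstl3 were nearly equal and TAC replicate 1 was clear of them, whereas Fstl1 spread widely within TAC.

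Markers of resident fibroblasts ordered the libraries within each group much as the matrix genes did, over a smaller range. Between the groups the order differed. In summed CPM TAC replicate 2 lay below every sham library in fibroblast markers, at 739.7. It lay above every sham library in the matricellular list, at 6712. The median log2 level of the fibroblast markers relative to the sham mean was -0.24, 0.48 and 1.25 in the TAC libraries. Sham libraries, each set against the other sham libraries, stood at -0.27, 0.55 and -0.28. Of 16 markers none was called higher and 1 was called lower by edgeR, with 12 positive changes, a median log2 change of 0.56 and an unadjusted p under 0.05 in 9, while 5 were called higher without TAC replicate 1 and 3 by DESeq2. Their summed level overlapped, at 572.3 to 1076 CPM in the TAC libraries, against 778.8 to 1246 CPM in the sham libraries, and none was at 0. The gene called lower was Hsd11b1, an enzyme of glucocorticoid activation, with 3.82, 5.3 and 4.57 CPM in the TAC libraries, against 10.5, 11.2 and 11 CPM in the sham libraries (-1.25 ± 0.27, edgeR adjusted p 0.0389). TAC replicate 1 had the lowest fibroblast sum of the 6 libraries, and the part of fibroblast content in the matrix result was not tested. In RNA from a mixture, fewer cells of a type and less RNA per cell cannot be told apart.

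**Figure D3:**
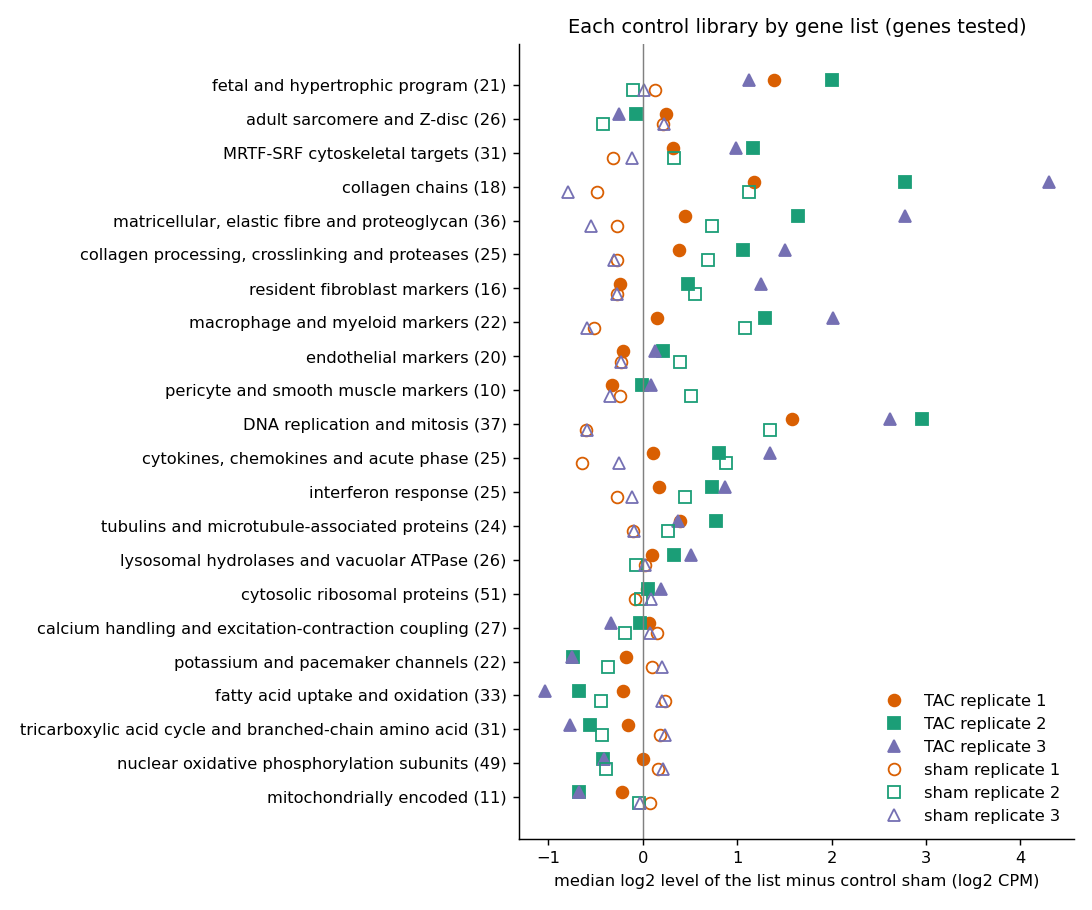
Median log2 level of each gene list in each control library (x axis, log2 CPM), with the number of tested genes in brackets. Filled symbols are TAC, set against the mean of the control sham libraries. Open symbols are sham, each set against the mean of the other sham libraries. TAC replicate 1 stands at 1.39 in the hypertrophic program, between the other TAC libraries, but at 0.15 in macrophage markers. Sham replicate 2 stands there at 1.08 on its own baseline.

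Of 22 macrophage and myeloid markers none was called by edgeR, although all 22 had a positive change with a median of 1.27. An unadjusted p under 0.05 was found in 17, and 6 were called higher by DESeq2, none by limma-voom, and 11 by edgeR without TAC replicate 1. On the median log2 scale the list stood at 0.15, 1.30 and 2.02 in the TAC libraries relative to the sham mean. Sham libraries, each set against the other sham libraries, stood at -0.52, 1.08 and -0.59. In summed CPM TAC replicate 1, at 304.9, and sham replicate 2, at 452.2, lay inside the range of the opposite group. Summed levels were 304.9 to 977.2 CPM in the TAC libraries, against 214.9 to 452.2 CPM in the sham libraries, and no marker was at 0. Ms4a7, the marker with the smallest p, had 1.42, 6.69 and 17.9 CPM in the TAC libraries, against 1.01, 1.97 and 0.446 CPM in the sham libraries, and its edgeR adjusted p was 0.0599 with all libraries and 0.00362 without TAC replicate 1.

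Among 25 cytokine, chemokine and acute phase genes 3 were called higher and none lower, with a median log2 change of 0.92, and 6 were called higher without TAC replicate 1. The number was 3 without sham replicate 2, 0 without any other control library, and 1 to 3 without any 1 of the dKO libraries. The list's median log2 level relative to the sham mean was 0.11, 0.81 and 1.35 in the TAC libraries. Sham libraries, each set against the other sham libraries, stood at -0.65, 0.88 and -0.25. In summed CPM sham replicate 2, at 565.4, lay above TAC replicate 1, at 423.6, and below TAC replicate 2, at 577. Serpina3n, an acute phase protease inhibitor, had 8.16, 37.4 and 51.9 CPM in the TAC libraries, against 3.34, 7.23 and 4.58 CPM in the sham libraries (2.69 ± 0.53, edgeR adjusted p 0.0249). Lcn2, lipocalin 2, had 3, 2.6 and 2.87 CPM in the TAC libraries, against 1.05, 0.728 and 1.34 CPM in the sham libraries, with no TAC library standing apart (1.43 ± 0.32, edgeR adjusted p 0.0439). Ccl8, a monocyte chemokine, had 0.936, 2.74 and 4.8 CPM in the TAC libraries, against 0.137, 0.685 and 0.112 CPM in the sham libraries (3.18 ± 0.74, edgeR adjusted p 0.0478). All 25 interferon response genes had a positive change with a median of 0.60, yet 2 were called: the chemokine Cxcl10, with 0.749, 3.34 and 3.17 CPM in the TAC libraries, against 0.183, 0.342 and 0.372 CPM in the sham libraries (edgeR adjusted p 0.0249), and Oasl2, with 15.4, 24.3 and 28.9 CPM in the TAC libraries, against 9.87, 11.1 and 10.4 CPM in the sham libraries (1.13 ± 0.25, edgeR adjusted p 0.0409). The sham level of Cxcl10 came from 4 to 10 reads per library. In summed CPM over the interferon list sham replicate 2, at 294.2, lay above TAC replicate 1, at 260.8.

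Endothelial and mural marker lists held no call in edgeR. Over all tested genes 2480 of 14712 had an unadjusted p under 0.05. Of 20 endothelial markers 2 had an unadjusted p under 0.05, DESeq2 called 1 in each direction and limma-voom none, the median log2 change was 0.05, and their sums were 2893 to 3732 CPM in the TAC libraries, against 3033 to 3965 CPM in the sham libraries. Of 10 pericyte and smooth muscle markers none had an unadjusted p under 0.05 and none was called by DESeq2 or limma-voom, with a median of -0.21. Of 12 atrial genes tested 2 were called higher, Nppa and Dkk3. Dkk3, a secreted glycoprotein of the Dickkopf family, had 15.7, 13.4 and 35.9 CPM in the TAC libraries, against 3.15, 2.91 and 1.34 CPM in the sham libraries (3.14 ± 0.69, edgeR adjusted p 0.0399).

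Of 37 genes of DNA replication and mitosis 18 were called higher and none lower, with a median log2 change of 2.27, and 36 had a positive change. The number was 23 without TAC replicate 1, 29 without sham replicate 2, 8 without TAC replicate 3, 2 without TAC replicate 2 and 0 without sham replicate 1 or sham replicate 3. Mki67 (chr7:135689784-135716361), the proliferation antigen Ki-67, had 37.1, 82.7 and 59.7 CPM in the TAC libraries, against 5.85, 4.45 and 4.84 CPM in the sham libraries. All sham libraries were low and close together, TAC replicate 1 lay well above them, and the change was 3.57 ± 0.42 (edgeR adjusted p 0.00788). Cdca8, a subunit of the chromosomal passenger complex, had 3.48, 7.33 and 6.3 CPM in the TAC libraries, against 0.366, 0.813 and 0.446 CPM in the sham libraries (3.39 ± 0.43, edgeR adjusted p 0.00886), and the kinetochore motor Cenpe had 4.08, 10.3 and 8.13 CPM in the TAC libraries, against 0.64, 1.16 and 1.04 CPM in the sham libraries (2.98 ± 0.43, edgeR adjusted p 0.0108). Foxm1, a transcription factor of mitotic genes, had 7.04, 17.8 and 13.3 CPM in the TAC libraries, against 1.05, 4.2 and 1.23 CPM in the sham libraries (2.56 ± 0.50, edgeR adjusted p 0.0248).

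The cell cycle list summed to 311.3, 661.2 and 531 CPM in the TAC libraries, against 153.6, 261.3 and 138.8 CPM in the sham libraries, without overlap. On the list's median log2 scale TAC replicate 1 stood at 1.575 relative to the sham mean. Sham replicate 2 stood at 1.349 relative to the other sham libraries, a different baseline. Which cells cycled was not measured. Of 19 regulators of G1 and S entry tested 1 was called in each direction. E2f1, a transcription factor of S phase entry, had 2.51, 6.44 and 6.95 CPM in the TAC libraries, against 0.685, 1.8 and 0.781 CPM in the sham libraries (2.28 ± 0.51, edgeR adjusted p 0.0417), and Cdkn1c, an inhibitor of cyclin-dependent kinases, had 8.35, 6.3 and 8.52 CPM in the TAC libraries, against 14.2, 20.8 and 17.1 CPM in the sham libraries (-1.17 ± 0.27, edgeR adjusted p 0.0478).

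Genes of mitochondrial fuel use had a negative change in nearly every member, with no gene called in the lists of fatty acid oxidation, the citric acid cycle and oxidative phosphorylation. None of 33 genes of fatty acid uptake and oxidation was called by edgeR, 31 had a negative change and the median was -0.61. An unadjusted p under 0.05 was found in 15, and 3 were called lower by DESeq2, none by limma-voom, and 7 by edgeR without TAC replicate 1. Slc27a1, a fatty acid transporter and the member with the smallest p, had 95.4, 69.1 and 69.3 CPM in the TAC libraries, against 172, 122 and 179.9 CPM in the sham libraries, with an edgeR adjusted p of 0.0654, and 0.0317 without TAC replicate 1. On the list's median log2 scale the TAC libraries stood at -0.21, -0.67 and -1.04 relative to the sham mean. Sham libraries, each set against the other sham libraries, stood at 0.24, -0.44 and 0.20. In summed CPM sham replicate 2, at 18550, lay below TAC replicate 1, at 19720. None of 31 genes of the citric acid cycle and of branched-chain amino acid breakdown was called by edgeR, all 31 had a negative change with a median of -0.47, 12 had an unadjusted p under 0.05, and DESeq2 called 4 lower and limma-voom none. Without TAC replicate 1 edgeR called 6 lower. The median log2 level of this list was -0.15 in TAC replicate 1 relative to the sham mean. It was -0.43 in sham replicate 2 relative to the other sham libraries, and sham replicate 2 lay below the sham mean in every gene. In summed CPM sham replicate 2, at 18090, lay below TAC replicate 1, at 21100. Of 49 nuclear oxidative phosphorylation genes none was called by edgeR, DESeq2 or limma-voom, 1 had an unadjusted p under 0.05 and all had a negative change, with a median of -0.27. Here too sham replicate 2, at 31340 CPM summed over the list, lay below TAC replicate 1, at 36500 CPM. Their median log2 levels were -0.39 relative to the other sham libraries and -0.0036 relative to the sham mean.

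Mitochondrially encoded transcripts separated the groups more cleanly than nuclear ones did, though edgeR called none of the 11 tested (4 had an unadjusted p under 0.05, and DESeq2 called 1 lower and limma-voom none). Every TAC library lay below every sham library in 10 of the 11, against 10.8% of all tested genes and 0 of the 49 nuclear oxidative phosphorylation genes, and the list summed to 211200 to 286700 CPM in the TAC libraries, against 324800 to 345100 CPM in the sham libraries. The median log2 change was -0.49. The list held 15 genes, of which 4 were not tested, and 2 to 3 were at 0 in each control library. The 10 included a member at a mean of 0.247 CPM in the TAC libraries and 1.61 CPM in the sham libraries. Leaving all mitochondrially encoded transcripts out before normalization gave 288 genes higher and 50 lower. The mitochondrial isoleucine tRNA gene mt-Ti was called lower, with 18.3, 11.3 and 9.76 CPM in the TAC libraries, against 51.8, 53.5 and 30.0 CPM in the sham libraries (-1.78 ± 0.33, edgeR adjusted p 0.0204). Libraries were selected for poly(A), tRNA genes abut or overlap their neighbours on the mitochondrial genome, and the sources used here do not give the strand setting of the counting, so the mt-Ti counts may include neighbouring transcripts.

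In glycogen and glucose metabolism 2 of 35 genes were called in each direction, against 1.90% of all tested genes called higher and 0.347% called lower. Pfkfb1, which sets the level of fructose bisphosphate, had 5.65, 2.88 and 5.09 CPM in the TAC libraries, against 17.9, 12.9 and 17 CPM in the sham libraries (-1.81 ± 0.29, edgeR adjusted p 0.0146), and Phkg1, a catalytic subunit of phosphorylase kinase, had 10.5, 7.05 and 8.26 CPM in the TAC libraries, against 27.6, 18.2 and 23 CPM in the sham libraries (-1.42 ± 0.30, edgeR adjusted p 0.0325). Higher were the platelet phosphofructokinase Pfkp, with 123, 182 and 92.5 CPM in the TAC libraries, against 52.5, 64.3 and 45.2 CPM in the sham libraries (1.29 ± 0.24, edgeR adjusted p 0.0204), and phosphoglycerate mutase Pgam1, with 19.2, 20.6 and 13.6 CPM in the TAC libraries, against 9.55, 8.9 and 10.6 CPM in the sham libraries (0.88 ± 0.21, edgeR adjusted p 0.0478). Pgam1 was highest in TAC replicates 1 and 2 and lost its call without TAC replicate 1 (edgeR adjusted p 0.0562).

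Few ion channel genes were called. Of 22 potassium and pacemaker channel genes 1 was called lower, against 0.347% of all tested genes, and 19 had a negative change. Every TAC library lay below every sham library in 10 of the 22, against 10.8% of all tested genes. The number called lower was 5 without TAC replicate 1, 2 without sham replicate 2 and 0 without any other control library. Kcnv2, a modifier subunit of voltage-gated potassium channels, had 4.83, 0.854 and 2.28 CPM in the TAC libraries, against 16.3, 7.83 and 14.4 CPM in the sham libraries (-2.27 ± 0.51, edgeR adjusted p 0.0407). Of 27 calcium handling and excitation genes 1 was called, Scn4b, a beta subunit of sodium channels, with 32, 18.1 and 15.9 CPM in the TAC libraries, against 65.9, 47.2 and 59 CPM in the sham libraries (-1.38 ± 0.28, edgeR adjusted p 0.0287). Atp2a2, the calcium pump of the sarcoplasmic reticulum, had 12019, 8690.1 and 5534 CPM in the TAC libraries, against 16117, 11885 and 14585 CPM in the sham libraries. The groups overlapped through TAC replicate 1 and sham replicate 2, and the change of -0.70 ± 0.31 had an edgeR adjusted p of 0.282.

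Further genes among the lowest changes had other roles. Angpt1, a ligand of the endothelial receptor Tie2, had 8.91, 7.86 and 11.7 CPM in the TAC libraries, against 35, 21.3 and 23.5 CPM in the sham libraries (-1.49 ± 0.29, edgeR adjusted p 0.024). Pim3, a serine/threonine kinase, had 43, 36.2 and 54.5 CPM in the TAC libraries, against 118, 121 and 126 CPM in the sham libraries (-1.45 ± 0.26, edgeR adjusted p 0.019), and Klhl38 had 14.3, 5.87 and 6.46 CPM in the TAC libraries, against 41.1, 20.4 and 35.1 CPM in the sham libraries (-1.86 ± 0.38, edgeR adjusted p 0.028). For Angpt1 and Pim3 the TAC libraries sat together, and for Klhl38 TAC replicate 1 lay between the other TAC libraries and sham.

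Secreted growth factors and stress genes added single calls. Of 32 growth factor genes 3 were called higher, none was lower, and 8 were called higher without TAC replicate 1, 1 without sham replicate 2 and 0 without any other control library. Hbegf, a ligand of the EGF receptor, had 38.6, 83.3 and 60.5 CPM in the TAC libraries, against 22.2, 17.8 and 29.5 CPM in the sham libraries (1.39 ± 0.29, edgeR adjusted p 0.0321), and Igf1, insulin-like growth factor, had 6.22, 16.9 and 35.9 CPM in the TAC libraries, against 3.52, 5.95 and 3.91 CPM in the sham libraries (2.14 ± 0.49, edgeR adjusted p 0.0448). Pleiotrophin (Ptn) had 1.05, 7.44 and 56.5 CPM in the TAC libraries, against 0.96, 1.03 and 0.595 CPM in the sham libraries, so that TAC replicate 1 was all but level with sham while TAC replicate 3 was far above it (4.66 ± 1.08, edgeR adjusted p 0.0478). Star, which carries cholesterol into mitochondria, had 2.96, 15.1 and 12.3 CPM in the TAC libraries, against 1.01, 1.33 and 0.781 CPM in the sham libraries (3.29 ± 0.49, edgeR adjusted p 0.0125). Meox1, a homeobox factor known from activated fibroblasts, had 23.4, 62.8 and 57.7 CPM in the TAC libraries, against 9.69, 19.1 and 5.91 CPM in the sham libraries (2.06 ± 0.44, edgeR adjusted p 0.036), and Aldh1a2, an enzyme of retinoic acid synthesis, had 8.43, 28.1 and 18.3 CPM in the TAC libraries, against 2.74, 5.78 and 2.75 CPM in the sham libraries (2.28 ± 0.54, edgeR adjusted p 0.0486). The chaperone Hspa1l had 11.8, 14.3 and 7.05 CPM in the TAC libraries, against 4.98, 5.14 and 5.51 CPM in the sham libraries (1.08 ± 0.24, edgeR adjusted p 0.0407).

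Several programs held no gene called by edgeR: immediate early genes (22), unfolded protein response (20), integrated stress response (20), antioxidant genes (27), clock genes (19), cytosolic ribosomal proteins (51), lysosomal genes (26), tubulins and microtubule-associated proteins (24), actin dynamics (34) and costamere genes (33). Their numbers with an unadjusted p under 0.05 were 1 immediate early, 4 unfolded protein, 4 integrated stress, 5 antioxidant, 3 clock, 1 ribosomal, 10 lysosomal, 9 microtubule, 12 actin and 7 costamere genes. Over all tested genes the number was 2480 of 14712. DESeq2 called 0 to 5 genes of each list, the most among lysosomal (5) and costamere genes (5, of which 3 higher), and limma-voom called none. Lysosomal genes had 7 called higher and antioxidant genes 4 by edgeR without TAC replicate 1, a fit in which 5.83% of all genes were called higher. Ribosomal protein genes had 44 of 51 positive changes with a median log2 change of 0.09, and Rpl3 had 131, 167 and 186 CPM in the TAC libraries, against 90.4, 105 and 90.8 CPM in the sham libraries (edgeR adjusted p 0.165). Ctsk, a lysosomal collagenase, had 3.63, 8.93 and 29.1 CPM in the TAC libraries, against 2.65, 3.94 and 2.94 CPM in the sham libraries, with an edgeR adjusted p of 0.0779, and 0.00484 without TAC replicate 1. Sprr1a, a small proline-rich protein, belonged to no list and had 0.824, 64.4 and 29.1 CPM in the TAC libraries, against 0.274, 0.0428 and 0.0744 CPM in the sham libraries, with 1 to 6 reads per sham library and an edgeR adjusted p of 0.0185.

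TAC replicate 1 was measured against the other TAC libraries gene by gene, as its log2 difference from the sham mean in percent of the mean difference of TAC replicates 2 and 3. Over the 135 genes called higher with a mean of at least 5 CPM the median share was 47.34%, from 6.604% to 125.4%, and 7 genes reached 100% while 74 lay under 50%. Over 31 genes called lower the median was 68.19%. Called genes were chosen with TAC replicate 1 among the libraries, so these shares are a description.

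**Figure D4:**
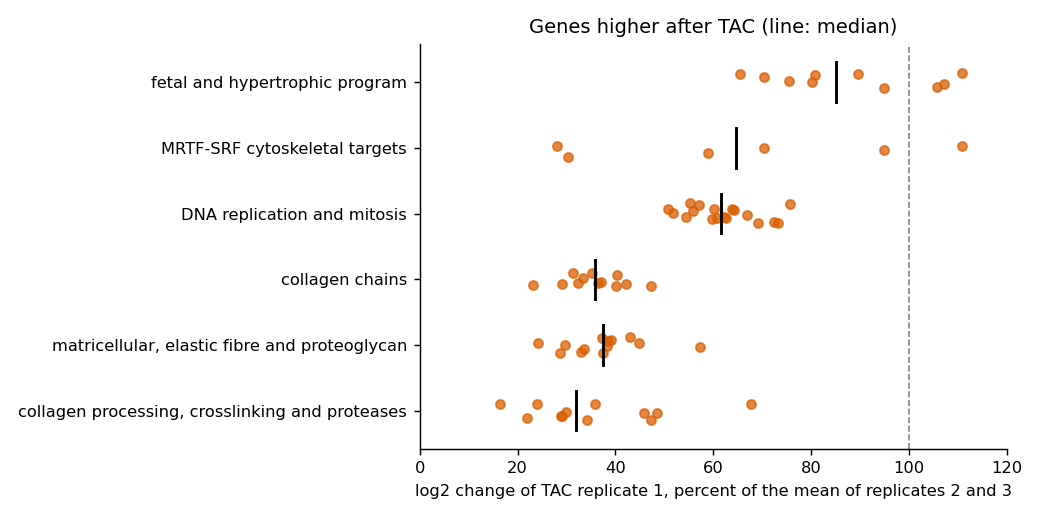
Log2 change of TAC replicate 1 from the sham mean, in percent of the mean change of TAC replicates 2 and 3, for the genes called higher in 6 lists; each point is a gene and a line the list's median. The 10 hypertrophic genes lie between 65.43% and 110.9%, the 18 cell cycle genes between 50.66% and 75.7%, and the 12 collagen genes between 23.24% and 47.34%; the dashed line marks 100%.

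The share differed by list. The median was 85.16% for the 10 called hypertrophic genes, 64.65% for 6 MRTF-Srf targets, 61.5% for 18 cell cycle genes, 37.39% for 13 matricellular genes, 35.87% for 12 collagens and 31.99% for 12 collagen-processing genes. No called collagen reached the lowest called hypertrophic gene, which was Myh7 at 65.4%. At the high end among genes called higher stood Pgam1 (125%), Hspa1l (125%), Acta1 (111%), 1500017E21Rik (109%) and Flnc (108%). At the low end stood Ptn (6.6%), Serpinb1a (10.0%), Srpx2 (11.1%), Loxl3 (16.4%) and Enpp1 (18.1%).

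Serpinb1a, an inhibitor of neutrophil proteases, had 3.97, 55.6 and 67.6 CPM in the TAC libraries, against 2.56, 3.51 and 2.75 CPM in the sham libraries. TAC replicate 1 was just above the sham libraries and both other TAC libraries were far above it (3.85 ± 0.73, edgeR adjusted p 0.0212). Srpx2 had 5.65, 20.4 and 53.4 CPM in the TAC libraries, against 3.43, 6.25 and 4.32 CPM in the sham libraries, where TAC replicate 1 lay below sham replicate 2. Loxl3, a lysyl oxidase relative, had 6.14, 28.5 and 54.1 CPM in the TAC libraries, against 4.16, 6.38 and 2.9 CPM in the sham libraries, again with TAC replicate 1 below sham replicate 2. Enpp1, which hydrolyses extracellular ATP, had 7.08, 20.9 and 48.4 CPM in the TAC libraries, against 5.89, 4.24 and 5.21 CPM in the sham libraries. Of the 280 genes called higher, 6 overlapped between groups in this way.

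Among genes called lower, Hsd11b1 (132%), AU020206 (125%) and Egflam (119%) had the highest shares, and Cacna1s (40.0%), Kcnv2 (43.5%) and Scn4b (47.6%) the lowest. Egflam, an extracellular matrix protein, had 9.66, 10.5 and 10.9 CPM in the TAC libraries, against 18.7, 17.3 and 18.9 CPM in the sham libraries (-0.82 ± 0.19, edgeR adjusted p 0.049), and it lost its call without TAC replicate 1 (edgeR adjusted p 0.0614). Cacna1s, the skeletal muscle calcium channel subunit, had 8.16, 4.23 and 4.11 CPM in the TAC libraries, against 15.6, 10.2 and 12.9 CPM in the sham libraries (-1.23 ± 0.29, edgeR adjusted p 0.0471).

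Set alone against the 3 sham libraries, with the spread taken from the other groups, TAC replicate 1 gave 2 called genes (0.0124%), Mybpc2 and Thbs4, both higher. TAC replicate 2 alone gave 207 (1.28%), of which 195 were higher, and TAC replicate 3 alone gave 614 (3.75%), of which 574 were higher. In such a fit the lone library is assumed to vary as much as the libraries of the other groups.

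Among the 14712 genes tested with all libraries, leaving out TAC replicate 1 added 585 genes higher and 206 genes lower, and 12 more called genes were tested only without it. On the median log2 scale relative to sham, the added higher genes stood at 0.32, 1.35 and 1.90 in the 3 TAC libraries, and the added lower genes at -0.34, -1.07 and -1.08. Added higher genes with the smallest p at a mean of at least 5 CPM were the collagen receptor Mrc2, the prolyl hydroxylase relative P3h3, Cercam, Tgfb3 and the elastic fibre gene Efemp2. Mrc2 had 23.4, 68.9 and 126 CPM in the TAC libraries, against 14.6, 25.3 and 18 CPM in the sham libraries (edgeR adjusted p 0.0537 with all libraries, 0.00223 without TAC replicate 1). Tgfb3, a TGF-beta ligand, had 14, 32.9 and 74.5 CPM in the TAC libraries, against 12.6, 13.8 and 11.3 CPM in the sham libraries (0.068 and 0.00226 by the same edgeR fits). TAC replicate 1 lay below sham replicate 2 in Mrc2 and just above it in Tgfb3.

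Added lower genes with the smallest p were Ky, Pdp2, Armc2, Clcn1 and Gnb3. Pdp2, a phosphatase that activates pyruvate dehydrogenase, had 29.9, 13.8 and 8.88 CPM in the TAC libraries, against 35.5, 30.1 and 29 CPM in the sham libraries (edgeR adjusted p 0.212 with all libraries, 0.00378 without TAC replicate 1). Clcn1, the skeletal muscle chloride channel, had 4.79, 1.32 and 1.6 CPM in the TAC libraries, against 11.2, 4.67 and 11.3 CPM in the sham libraries (0.0735 and 0.00443 by the same edgeR fits). In Ky, a muscle protein, TAC replicate 1 had 14.9 CPM and lay inside the range of the sham libraries.

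The dKO libraries gave values of the same genes in other samples. All 12 libraries entered 1 estimate of each gene's spread, so that calls in control and in dKO are not independent. In dKO 618 genes were higher after TAC (4.20%) and 469 lower (3.19%) by edgeR. Over the 618 genes the control TAC libraries stood at a median log2 of 0.594, 1.33 and 1.28 relative to the control sham mean. The control sham libraries, each set against the other control sham libraries, stood at -0.074, 0.189 and -0.119. TAC replicate 1 was above every sham library in 75.7% of these genes, TAC replicate 2 in 91.9% and TAC replicate 3 in 85.6%, against 25.2%, 35.6% and 36.7% over all tested genes. Over the 469 genes lower in dKO the control TAC libraries stood at -0.321, -0.824 and -0.767 relative to the control sham mean. The control sham libraries, each set against the other control sham libraries, stood at 0.146, -0.305 and 0.155. On genes chosen by the dKO comparison, the median of TAC replicate 1 thus lay on the same side of sham as those of the other TAC libraries and less far from it. The median of sham replicate 2 lay on that side too, over the 618 and over the 469 genes.

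Of the 280 genes called higher in control, 279 had the same sign in dKO and 209 (74.64%) were called higher there, and of the 51 called lower all had the same sign and 30 were called. Among the 585 genes added without TAC replicate 1, 577 had the same sign and 108 (18.46%) were called in dKO, and among the 206 added lower genes 204 and 79. The same sign was shared by 70.49% of all tested genes. Nppa changed by 3.22 ± 0.41 in dKO (edgeR adjusted p 0.00217), Postn by 4.91 ± 0.85 (0.00767 by the same fit), Mki67 by 2.85 ± 0.41 (0.00394) and Mybpc2 by 2.06 ± 0.18 (0.000342). Klhl38, called lower in control, changed by -0.38 ± 0.36 in dKO (edgeR adjusted p 0.517), and Dkk3 by 0.91 ± 0.63 (0.367). The test of the difference between genotypes called 0 genes in edgeR, where 697 genes had an unadjusted p under 0.05, and 11 in DESeq2.

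**Figure D5:**
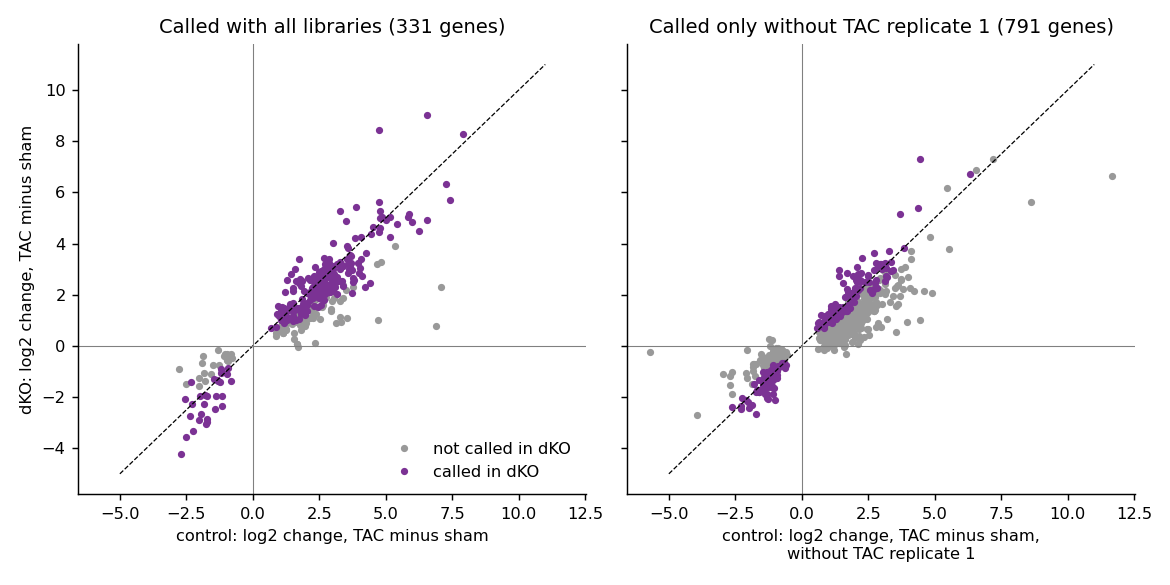
Log2 change after TAC in dKO (y axis) against control (x axis) for the 331 genes called in control with all libraries (left) and the 791 genes tested in both fits and called only without TAC replicate 1 (right, where the x axis leaves that library out). Purple points are called in dKO, grey points are not, and the dashed line marks equal change; nearly all points of both panels share their sign.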

How the data were processed

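Poly(A) RNA of enriched cardiomyocytes was sequenced from 200 ng of RNA with a stranded kit as single reads of 100 nt, per the labels' protocols. The authors deposited whole-number read counts for 49568 genes, of which 21344 were at 0 in all 12 libraries. The submitters' processing notes name the genome build GRCm38.p5 and, as tools, STAR 2.5.2b, Trimmomatic 0.36, featureCounts and Subread 1.5.0p3. The sources used here give neither their settings nor the annotation, strand handling or treatment of reads that match several genes, which can lower or mix the counts of near-identical genes.

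All 12 libraries entered 1 fit of edgeR 4.0.16 (R 4.3.3, limma 3.58.1) on the counts, with a mean per group, TMM scaling, the filterByExpr rule by group and 8 residual degrees of freedom. Standard errors come from the log2 change and its F statistic, and log2 CPM uses a prior count of 2. The 3 counts behind each floor cover counting error only, since the reads carry no molecular identifiers. Coordinates are from GENCODE release 21 on GRCm38, to which 14558 of 14712 tested genes matched by symbol. Alternatives were RLE scaling, other filters, DESeq2 1.42.0, limma-voom, robust spread, fewer libraries and a replicate block, and 2 DESeq2 fits were added after seeing the data. Plots were made in Python 3.11.15 with matplotlib 3.10.9. No library pair of a group was a duplicate.

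The libraries compared, the 48 gene lists and the tests were chosen with earlier results of these data known. The naming rule takes 12 fixed genes, the 8 highest and 8 lowest called genes at a mean of at least 5 CPM without overlap, up to 3 called genes per list and direction (or the member with the smallest p), the genes with the highest and lowest share in TAC replicate 1, the genes with the smallest p called only without it, and those called from the control libraries alone. Other genes were chosen after their values were seen. One gene that the naming rule covers is not reported here.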

Additional observations from a re-analysis of the deposited data

How the results depend on the processing

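Counts of called genes in control moved with the setting. Against 280 higher and 51 lower with all libraries, they were 652 and 284 without a filter on low counts, 755 and 250 in DESeq2, 141 higher in limma-voom, 2 and 0 in edgeR on the control libraries alone, and 731 and 382 in DESeq2 on those libraries. Leaving out both dKO sham replicate 1 and replicate 2 of dKO TAC, which lay at 16.51% and 15.32% mitochondrial counts against 24% to 28.93% in the other dKO libraries, gave 501 and 270, and 322 of the 331 were shared. Single control TAC libraries gave 2 and 0 for replicate 1, 12 lower for replicate 2 and 574 higher for replicate 3. DESeq2 without control TAC replicate 1 gave 1389 and 633. Leaving out each of the 12 libraries in turn gave 2 to 875 higher and 0 to 255 lower. RLE scaling (288 and 49), a mean of at least 1 CPM (227 and 38), robust spread (258 and 43) and leaving out mitochondrially encoded genes (288 and 50) stayed within 1.5 times.

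The 1087 genes called after TAC in dKO were 2376 in DESeq2, 2560 in DESeq2 without control TAC replicate 1, 210 to 1389 with 1 library left out, and 1580 without the pair of dKO libraries. Genes with a different response in dKO, 0 in edgeR, numbered 5 without a filter, 11 in DESeq2, 3 in DESeq2 without control TAC replicate 1, 2 without the pair of dKO libraries, and 0 to 1 with 1 library left out.

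Srf, not called, ranged from -0.11 to 0.096 with 1 library left out, and turned to a log2 change of 0.096 without the third control sham library, 0.072 without the third control TAC library, 0.12 for TAC replicate 1 alone and 0.034 for TAC replicate 2 alone, and Myh6, not called, to 0.085 for TAC replicate 1 alone. The cause of these moves was not tested. The positions of the control TAC libraries moved by less than their spread under another prior count (0.5) and under RLE.

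Replicate numbers are shared between groups, and the labels do not say that a number pairs samples. Deviations of same-numbered control libraries correlated at 0.35, 0.253 and -0.165 over genes, and those of the other control pairs at -0.46 to 0.308. Deviations within a group are tied to each other, so these correlations cannot decide whether samples were paired. With the replicate block 214 genes were higher and 38 lower, 252 in all, of which 229 were among the 331. At 23630354 to 29675212 counts per control library, named genes with at most 10 reads in every sham library are given without a fold.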
